A study of Mus musculus with 41 samples.

Results

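The sites described here are those called with an antibody against LSD1 in cultured mouse cortical neurons after 1 h in KCl and at rest. On chromosomes 1 to 19 there were 18258 sites at 1 h and 22305 sites at 0 h, 40563 together, out of 488881 called regions in the 27 lists of the series. A 1 h site was called kept when it lay within 1 kb of a 0 h site, and gained when it did not. A 0 h site was kept when it lay within 1 kb of a 1 h site, and lost when it did not. The members were chosen by position alone, without regard to any mark or to Pol II.

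Both lists come from primary cortical neurons labelled wild type, 10 days in vitro, in a bath of 55 mM KCl for 1 h or 0 h, with 1 library at each time. KCl depolarizes neurons, and 0 h is rest. Histone and Pol II lists came from neurons of the same kind labelled LSD1n WT, at the same 2 times, and whether these are the same animals as those labelled wild type is not given. For comparison there are LSD1 antibody lists from LSD1n KO neurons, whose labels give no KCl time, and from LSD1n WT neurons at 0 h. Lists with an antibody against the Flag tag at 1 h and 0 h came from neurons labelled R26/LSD1n and R26/LSD1c, in which the labels name no promoter for the tagged protein. Each of these groups has 1 library, apart from H4K20me1 at 1 h with 2, and the number of cultures or animals behind a library is not given. No difference between times was therefore tested, and bracketed ranges are 95% exact intervals that cover counting error only.

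LSD1 (KDM1A) is a flavin-dependent demethylase that removes mono- and dimethyl groups from lysine 4 of histone H3 (H3K4me1, H3K4me2) and acts in the CoREST complex, a repressor of transcription. Its neuronal isoform LSD1n arises by alternative splicing, and the title of the series ascribes to it the removal of methyl groups from lysine 20 of histone H4 (H4K20). H3K4me1 marks enhancers and the flanks of promoters, H3K4me2 marks promoters and active enhancers, H4K20me1 covers bodies of transcribed genes, and Pol II piles up close to transcription start sites. The label of the LSD1 antibody names no isoform, and the LSD1n KO list held 13445 sites and the LSD1n WT list 13207 sites on chromosomes 1 to 19.

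The 1 h library was shallower, with 19266695 tags against 24377237 at 0 h, and 1.51% of its tags lay in sites against 1.82%. A site held 15.8 tags on average at 1 h and 19.6 tags at 0 h, where the tag threshold of a site was 12 and 13. Gained and lost thus refer to calls, and a place without a call may hold tags below the threshold. The peak caller's filter against the surrounding 10 kb, which requires a 4-fold excess, removed 11.2% of 20795 candidate sites at 1 h and 32.3% of 33452 at 0 h. It removed 46.5% of candidates in the LSD1n KO list and 23.8% in the LSD1n WT list at 0 h. The part of depth, of the thresholds and of this filter in the differences below was not tested. The 2 wild type libraries share the prefix of their sample titles, while the LSD1n KO and LSD1n WT libraries carry other prefixes; what a prefix stands for is not given.

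In each list about as many sites were matched at the other time as were not. At 1 h, 8581 sites were gained (47.0%, 46.3 to 47.7) and 9677 kept, so that 53.0% of the 1 h list was kept. Of the 0 h sites, 11546 were lost (51.8%, 51.1 to 52.4) and 10759 were kept, or 48.2% of that list. With the longer list shortened to the length of the other, the order of the shares was turned, at 48.2% kept at 1 h and 53.2% at 0 h. The 1 h list was 0.819 times as long as the 0 h list (log2 ratio -0.29). Every one of the 19 chromosomes had fewer sites at 1 h, with ratios between 0.713 on chromosome 4 and 0.913 on chromosome 18. The share kept ran from 48.3% (chromosome 12) to 57.0% (chromosome 7) at 1 h and from 44.5% (chromosome 12) to 52.8% (chromosome 17) at 0 h, so gained and lost sites were spread over all autosomes. Another list at rest, LSD1n WT of 0 h, had a site within 1 kb of 45.8% of wild type 0 h sites. That list has 13207 sites, fewer than the 1 h list, so 45.8% and 48.2% are not comparable. Of its sites, 74.3% lay within 1 kb of a wild type 0 h site and 54.2% within 1 kb of a 1 h site. The wild type 0 h list is longer than the 1 h list, and the part of length was not tested.

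Many kept sites did not overlap their partner at the other time. Sites that overlapped a site of the other time by at least 1 bp made up 25.6% of the 1 h list and 20.9% of the 0 h list. The share reached 48.5% at 1 h and 42.5% at 0 h when a gap of 500 bp was allowed. Beyond 1 kb it rose slowly: at 2 kb it was 55.4% at 1 h and 50.4% at 0 h, and at 5 kb 58.8% at 1 h and 52.8% at 0 h. Most of the sites matched within 1 kb without overlapping therefore lay less than 500 bp apart.

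First-listed sites were kept most often. The lists hold no usable score, and the order of entries was read as rank. In the first 10th of each list 76.7% (74.7 to 78.6) of 1 h sites and 75.4% (73.6 to 77.2) of 0 h sites were kept. In the last 10th the shares were 36.4% (34.2 to 38.7) at 1 h and 23.9% (22.1 to 25.7) at 0 h. The share fell at every step between the 10ths of both lists. Of the first 100 sites, 94 were kept at 1 h and 95 at 0 h. Gained sites had a median rank percentile of 60.8 against 39.9 for kept sites of the 1 h list, and lost sites 62.6 against 36.9 for kept sites of the 0 h list, where low percentiles are first-listed. Ranks range over each whole list, so 1000 gained sites still lay in the first 5th of the 1 h list and 1321 lost sites in the first 5th of the 0 h list.

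**Figure D1:**
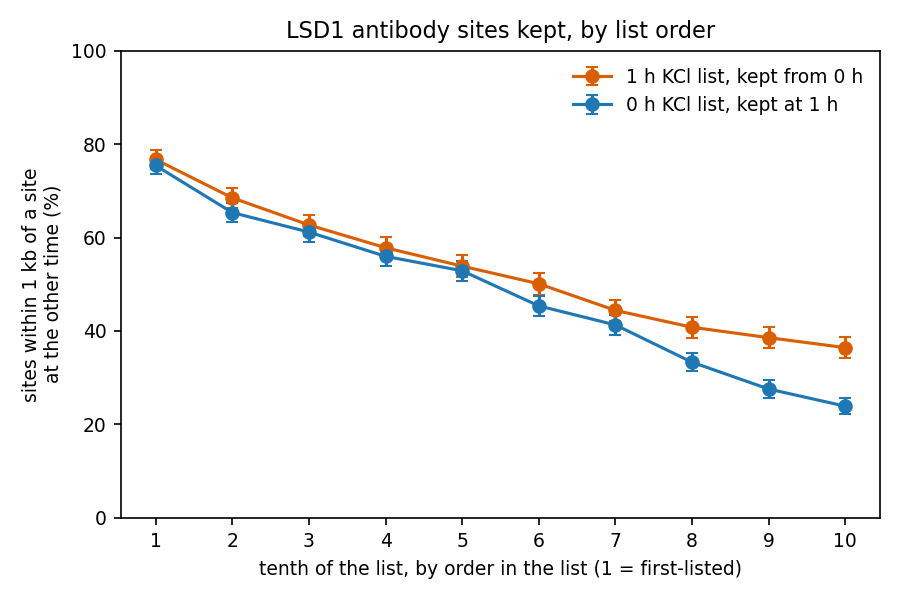
Share of sites kept (vertical axis, %) in each of 10 equal parts of the 1 h and the 0 h list, by order in the list (horizontal axis). Points are shares with 95% exact intervals of counting error. The shares were 76.7% at 1 h and 75.4% at 0 h in the first 10th, and 36.4% at 1 h and 23.9% at 0 h in the last.

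A kept site did not hold its place in the order. Over the 10759 kept 0 h sites and their nearest 1 h sites, Spearman's correlation of rank was 0.20; the points share neighbours and regions, and it is given as a description. Of the 1683 kept sites from the first 10th of the 0 h list, 26.5% had a partner in the first 10th of the 1 h list and 24.4% had one in the last 5 of its 10 parts.

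Pol II was found more often at kept than at gained or lost sites. At 1 h, 16.5% (15.7 to 17.3) of gained sites and 43.6% (42.7 to 44.6) of kept sites overlapped a Pol II site of the same time, against 30.9% of all 1 h sites. At 0 h, 4.35% (3.98 to 4.74) of lost sites and 14.0% (13.4 to 14.7) of kept sites overlapped Pol II, against 9.01% of all 0 h sites. With Pol II counted within 1 kb, the shares were 24.3% of gained and 67.3% of kept sites at 1 h, among 47.1% of all. They were 20.8% of lost and 65.1% of kept sites at 0 h, among 42.2% of all. Sites of the 1 h list overlapped Pol II more often than those of the 0 h list in both classes, yet the lists had similar shares near Pol II once a distance of 1 kb was allowed. The direction of the overlap difference at 1 h depended on how kept was defined, and that at 0 h did not. When only sites overlapping by 1 bp counted as kept, gained sites overlapped Pol II at 1 h more often than kept sites by 4.13 percentage points, against 27.1 points less often under the 1 kb rule (-27.1). Lost minus kept at 0 h was -9.15 points under the 1 bp rule and -9.67 under the 1 kb rule.

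Classes differed in Pol II at every rank. In the first 5th of the 1 h list, 51.4% of gained and 74.3% of kept sites had Pol II within 1 kb, and in the last 5th 12.4% of gained and 55.0% of kept sites. In the first 5th of the 0 h list these were 50.9% of lost and 79.1% of kept sites, and in the last 5th 6.55% of lost and 38.7% of kept sites. Sites near Pol II became rarer down the list in each class, and most steeply among lost sites.

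H3K4me2 followed the same division. At 1 h it overlapped 17.7% (16.9 to 18.6) of gained and 41.3% (40.3 to 42.3) of kept sites, against 30.2% of all. At 0 h it overlapped 27.0% (26.2 to 27.8) of lost and 59.0% (58.0 to 59.9) of kept sites, against 42.4% of all. Within 1 kb the shares were 25.6% of gained and 61.1% of kept sites at 1 h (44.4% of all), and 35.2% of lost and 72.1% of kept sites at 0 h (53.0% of all). In the first 5th of each list the gap was narrower, with H3K4me2 at 31.4% of gained and 40.8% of kept sites at 1 h, and at 66.6% of lost and 74.1% of kept sites at 0 h. In the last 5th it was 10.1% of gained and 38.2% of kept sites at 1 h, and 9.03% of lost and 32.1% of kept sites at 0 h. The differences were much smaller with kept defined by an overlap of 1 bp, at -4.65 points for gained minus kept at 1 h in place of -23.5, and at -3.41 points for lost minus kept at 0 h in place of -32.0.

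Over the whole lists H3K4me1 hardly separated the classes at the site itself, and did so in the neighbourhood. At 1 h it overlapped 28.5% (27.6 to 29.5) of gained and 29.3% (28.4 to 30.2) of kept sites, against 28.9% of all, and the intervals overlap. At 0 h it overlapped 18.7% (17.98 to 19.4) of lost and 21.3% (20.5 to 22.1) of kept sites, against 19.9% of all. With both lists cut to their first-listed 5 of 10 parts and the classes called anew between them, both differences had the other sign. They were 3.95 points for gained minus kept at 1 h and 0.168 points for lost minus kept at 0 h. The values by 5ths that follow use the classes of the whole lists. The classes differed in opposite directions along the 1 h list, with H3K4me1 at 31.9% of gained and 27.0% of kept sites in its first 5th and at 24.2% (22.4 to 25.97) of gained and 32.8% (30.3 to 35.3) of kept sites in its last. At 0 h it was at 19.5% of lost and 19.04% of kept sites in the first 5th and at 15.5% of lost and 23.5% of kept sites in the last. Within 1 kb H3K4me1 lay near 45.8% of gained and 64.1% of kept sites at 1 h (55.5% of all), and near 35.8% of lost and 50.7% of kept sites at 0 h (43.0% of all). A kept site was thus more often beside an H3K4me1 region without lying in it.

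H4K20me1 was found at few sites. Of its 2 libraries at 1 h, list 1 overlapped 5.19% (4.73 to 5.68) of gained and 5.97% (5.51 to 6.46) of kept sites, against 5.60% of all. List 2, which covers 2.92 Mb against 57.1 Mb for list 1, overlapped 1.11% of gained and 2.72% of kept sites, against 1.96% of all. The mean of gained minus kept over these 2 unlike lists was -1.20 points, and -0.359 points without the regions called with all 8 targets of the series. At 0 h H4K20me1 overlapped 7.65% (7.17 to 8.15) of lost and 11.5% (10.9 to 12.1) of kept sites, against 9.52% of all. With kept defined by an overlap of 1 bp the 0 h difference was 0.452 points in place of -3.88. Within 1 kb the shares were 13.1% of gained and 22.8% of kept sites for list 1 at 1 h (18.3% of all), and 2.75% of gained and 5.80% of kept sites for list 2 (4.37% of all). At 0 h they were 13.7% of lost and 29.5% of kept sites (21.3% of all).

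**Figure D2:**
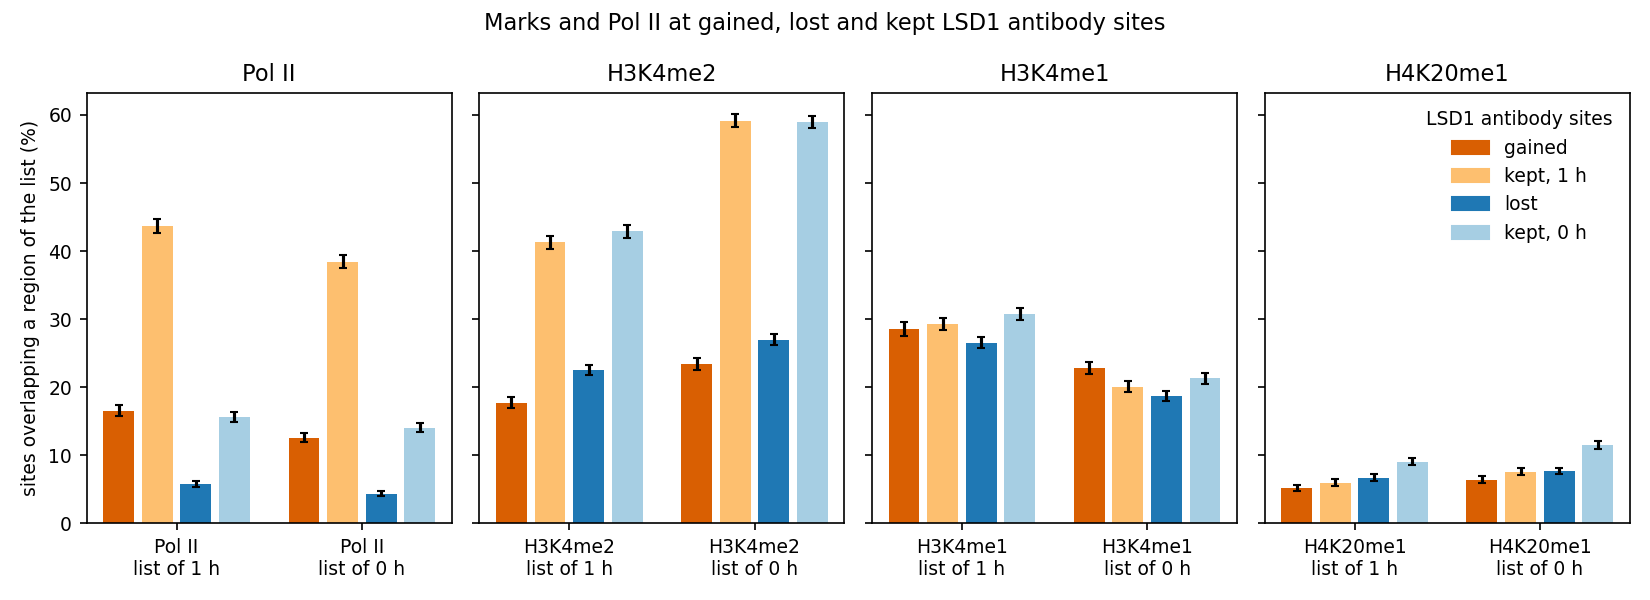
Share of LSD1 antibody sites (vertical axis, %) that overlap a region of Pol II, H3K4me2, H3K4me1 or H4K20me1 (list 1) in the lists of 1 h and 0 h, for gained sites and kept sites of the 1 h list and for lost sites and kept sites of the 0 h list. Bars are shares with 95% exact intervals of counting error. Pol II and H3K4me2 are rarer at gained than at kept 1 h sites and rarer at lost than at kept 0 h sites, while H3K4me1 of 1 h lies at 28.5% of gained and 29.3% of kept 1 h sites.

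Read against the lists of the other time, the classes kept their order for Pol II and H3K4me2. In the 0 h Pol II list lay 12.6% of gained and 38.4% of kept 1 h sites (26.3% of all), and in the 1 h Pol II list 5.70% of lost and 15.6% of kept 0 h sites (10.5% of all). In the 0 h H3K4me2 list lay 23.4% of gained and 59.2% of kept 1 h sites (42.3% of all), and in the 1 h H3K4me2 list 22.5% of lost and 42.9% of kept 0 h sites (32.3% of all). In the 0 h H3K4me1 list lay 22.9% of gained and 20.1% of kept 1 h sites (21.4% of all), and in the 1 h H3K4me1 list 26.5% of lost and 30.8% of kept 0 h sites (28.6% of all). In the 0 h H4K20me1 list lay 6.35% of gained and 7.58% of kept 1 h sites (7.01% of all). In the 1 h H4K20me1 lists lay 6.71% of lost and 9.06% of kept 0 h sites for list 1 (7.85% of all), and 1.19% of lost and 2.83% of kept sites for list 2 (1.98% of all).

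The marks differed between 1 h and 0 h at all classes of sites in the same direction, whether LSD1 was gained, lost or kept there. The share of sites in H3K4me1 was higher in the 1 h list than in the 0 h list by a ratio of 1.25 at gained sites, 1.42 at lost sites and 1.46 at kept 1 h sites. The share in H3K4me2 was lower at 1 h, with ratios of 0.759 at gained, 0.834 at lost and 0.698 at kept 1 h sites. The share in Pol II was higher at 1 h, with ratios of 1.31 at gained, 1.31 at lost and 1.14 at kept 1 h sites. For H4K20me1 list 1 the ratios were 0.817 at gained, 0.878 at lost and 0.787 at kept 1 h sites. List 2 of 1 h held far lower shares, with 1.11% of gained, 1.19% of lost and 2.72% of kept 1 h sites. The 0 h list held 6.35%, 7.65% and 7.58% of the same classes. The size of the H4K20me1 ratios thus depended on which 1 h list was used. The 0 h H4K20me1 library has a title prefix unlike that of either 1 h library, and the part of this was not tested. The lists as a whole differed too: H3K4me1 covered 49.9 Mb at 1 h and 36.7 Mb at 0 h, and H3K4me2 17.9 Mb at 1 h and 23.7 Mb at 0 h, from 6990017 and 9418008 tags. H4K20me1 (list 1) covered 57.1 Mb at 1 h and 49.6 Mb at 0 h, and there were 13839 Pol II sites at 1 h and 12718 at 0 h. No direction in these ratios set gained sites apart from lost sites, and the part of the lists' own lengths was not tested.

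Combinations of marks sorted the sites by how often they were kept. The sites with Pol II within 1 kb and H3K4me2 but no H3K4me1 were kept in 77.3% (75.8 to 78.7) of 3190 cases at 1 h and in 76.0% (74.95 to 77.1) of 6070 cases at 0 h. Pol II without either mark gave 78.9% of 2894 sites at 1 h and 71.2% of 1718 sites at 0 h. Pol II with both marks gave 72.0% of 1601 sites at 1 h and 73.4% of 1306 sites at 0 h. H3K4me1 without Pol II or H3K4me2 gave 36.8% (34.8 to 38.8) of 2279 sites at 1 h and 39.3% (37.1 to 41.4) of 2042 sites at 0 h. H3K4me2 on its own gave 63.4% (57.0 to 69.6) of 238 sites at 1 h and 34.5% (32.0 to 37.2) of 1300 sites at 0 h, the combination in which the lists differed most.

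Sites with none of the 3 were the largest single group and the least often kept. They were 6654 sites (36.4%) of the 1 h list, of which 29.2% (28.1 to 30.3) were kept, and 8770 sites (39.3%) of the 0 h list, of which 24.9% (24.0 to 25.8) were kept. They made up 54.9% of gained against 20.1% of kept 1 h sites, and 57.1% of lost against 20.3% of kept 0 h sites. Most gained and most lost sites thus lay outside the called H3K4me1 and H3K4me2 regions and over 1 kb from Pol II. Sites in H4K20me1 were kept in 56.5% (53.4 to 59.6) of cases at 1 h (list 1), against 52.8% outside it, and in 58.4% (56.3 to 60.5) of cases at 0 h, against 47.2% outside it.

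**Figure D3:**
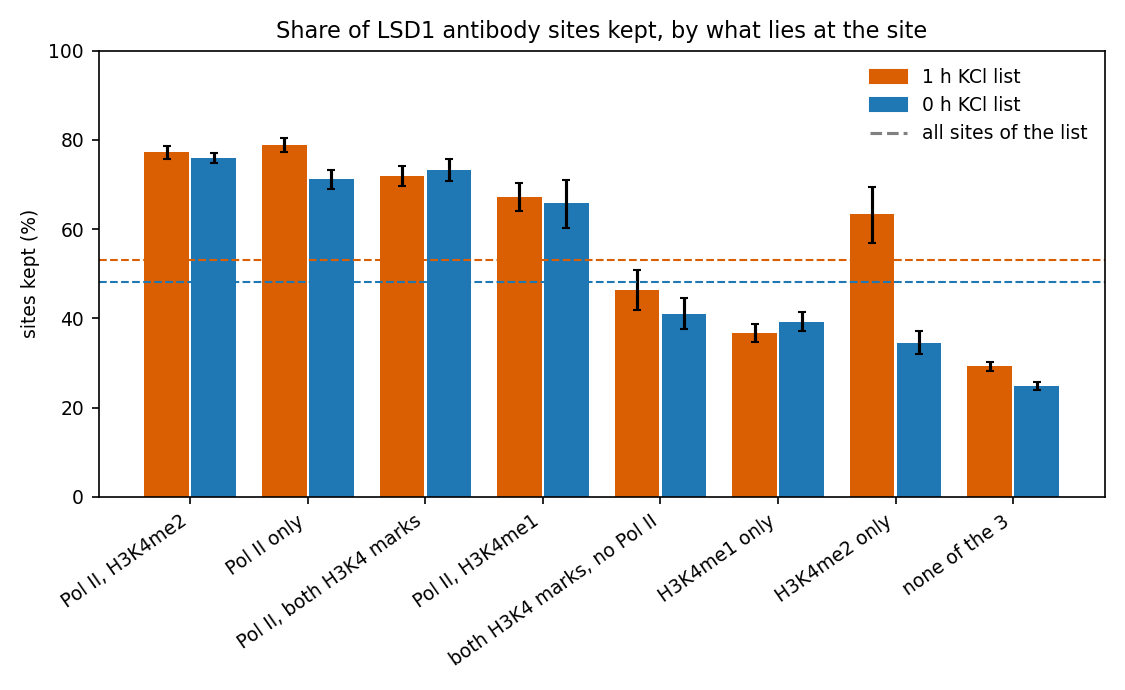
Share of sites kept (vertical axis, %) by the combination of Pol II within 1 kb, H3K4me2 and H3K4me1 at the site, in the lists of the same time, for the 1 h list and the 0 h list. Bars are shares with 95% exact intervals of counting error, and dashed lines mark all sites of each list, 53.0% at 1 h and 48.2% at 0 h. Combinations with Pol II lie above these lines, and sites with none of the 3 were kept in 29.2% of cases at 1 h and 24.9% at 0 h.

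Where LSD1 lay beside Pol II, its place differed between the times. Distances were taken between the centre of an LSD1 site and the centre of the nearest Pol II site of 0 h, for sites within 1.5 kb. In the 1 h list 7885 sites (43.2%) and in the 0 h list 9615 sites (43.1%) were beside Pol II, so the shares were alike. The median distance was 159 bp (156 to 163) at 1 h and 395 bp (388 to 402) at 0 h. Of the sites beside Pol II, 60.8% were within 200 bp of it at 1 h and 20.9% at 0 h. At 1 h the 100 bp bins nearest the Pol II centre held 29.8% (0 to 100 bp) and 30.8% (100 to 200 bp) of the sites. At 0 h the fullest bin was that from 300 to 400 bp, with 15.8%, and the bin from 0 to 100 bp held 9.38%.

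The difference was present in every class. Gained sites beside Pol II had a median distance of 160.5 bp and kept 1 h sites one of 159 bp. Lost sites had a median of 418 bp and kept 0 h sites one of 388 bp. By 5ths of the list the median ran from 154 to 174 bp at 1 h and from 343 to 414 bp at 0 h, with no overlap. With the Pol II list of 1 h as the landmark the medians were 140 bp at 1 h and 378 bp at 0 h, and with the 0 h Pol II list labelled KO they were 161 bp at 1 h and 391.5 bp at 0 h. These distances and the pairs below were examined after an earlier look at the same lists, and the settings around them were chosen after seeing the data.

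Kept sites showed it pair by pair. Of the 10759 kept 0 h sites, each with its nearest 1 h site, 7089 pairs were beside Pol II. The 1 h site was nearer to Pol II in 77.8% (76.9 to 78.8) of these, and the 0 h site in 21.8%. Several 0 h sites can share a 1 h site, as the 10759 pairs draw on at most 9677 kept 1 h sites. The pairs are therefore not independent, and the interval does not allow for this. The same holds for the pairs with other lists below. Within these pairs the median distance from Pol II was 159 bp for the 1 h sites and 389 bp for the 0 h sites. The centres of the 2 sites of a pair lay 329 bp apart in the median beside Pol II (319 to 338) and 103 bp apart (97 to 109) in the pairs away from it. The poor overlap of kept sites was thus mostly a matter of sites beside Pol II: a shift of at most 200 bp was seen in 30.5% of pairs beside Pol II and in 68.3% of pairs away from it. Among pairs that overlap by 1 bp the 1 h site was nearer in 66.7%.

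The other LSD1 antibody lists resembled the 0 h list in this measure. The median distance was 392 bp (386 to 400) in the LSD1n KO list and 406 bp (398 to 414) in the LSD1n WT list of 0 h, against 395 bp in the wild type list of 0 h. Paired with the LSD1n KO list, the wild type 1 h site was nearer to Pol II in 76.7% of 5321 pairs, and paired with the LSD1n WT list in 77.0% of 5675 pairs. Set against the wild type 0 h list, these 2 lists showed no such lean. The LSD1n KO site was nearer than the wild type 0 h site in 49.7% (48.5 to 50.9) of pairs and the LSD1n WT 0 h site in 50.8% (49.7 to 52.0), with centres 98 and 102.5 bp apart in the median beside Pol II. The 1 h list thus stood apart from 3 LSD1 antibody lists, of which the wild type 0 h list shares its title prefix, and no second 1 h library of this antibody is at hand.

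The Flag lists lay close to Pol II at both times. Flag-LSD1n sites beside Pol II had a median distance of 162 bp at 1 h (4003 sites) and 150.5 bp at 0 h (612 sites). Flag-LSD1c sites had 125 bp at 1 h (5024 sites) and 141 bp at 0 h (3432 sites). The difference of the medians, 1 h minus 0 h, was thus 11.5 bp for Flag-LSD1n and -16 bp for Flag-LSD1c, against -236 bp for the LSD1 antibody.

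**Figure D4:**
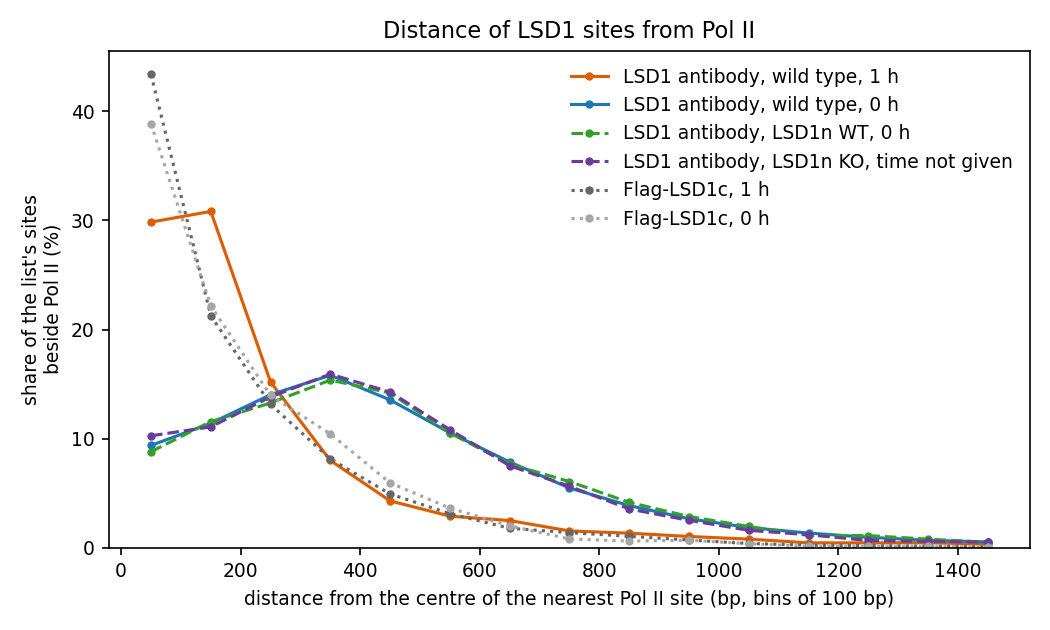
Distance between the centres of LSD1 sites and the nearest Pol II site of 0 h (horizontal axis, bp, in bins of 100 bp), as the share of the sites of each list that lie within 1.5 kb of Pol II (vertical axis, %). Lines are lists with 1 library each. The 1 h LSD1 antibody list is highest in the bins from 0 to 200 bp (29.8% and 30.8%) and the Flag-LSD1c lists in that from 0 to 100 bp, while the LSD1 antibody lists of wild type 0 h, LSD1n WT 0 h and LSD1n KO are highest between 300 and 400 bp from it.

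Counted from the Pol II sites, the centre was occupied more often at 1 h and the flanks more often at 0 h. Of the 12718 Pol II sites of 0 h, 37.7% (36.9 to 38.6) had a 1 h LSD1 site within 200 bp and 15.8% (15.2 to 16.5) a 0 h site. LSD1 sites on both flanks, 200 to 1200 bp away and none nearer, were found at 1.39% of Pol II sites at 1 h and at 9.21% at 0 h. In the LSD1n KO list 11.8% of Pol II sites had an LSD1 site within 200 bp and 5.10% had both flanks, and in the LSD1n WT list of 0 h these were 12.5% and 6.64%. Of the 1171 Pol II sites flanked on both sides at 0 h, 47.1% (44.2 to 50.05) had a site within 200 bp at 1 h and 2.90% still had both flanks. Of the 4782 with a 0 h site on a single flank, 44.3% had a site within 200 bp at 1 h. The share was 52.3% of the 2010 with a 0 h site within 200 bp, and 22.6% of the 4755 with no 0 h site in reach. Sites also stood closer to each other at 0 h: 10.5% of 1 h sites and 22.7% of 0 h sites had another site of their own list within 2 kb. Among kept sites these shares were 13.4% at 1 h and 32.2% at 0 h.

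Pol II sites called at a single time were rarer near kept LSD1 sites. The Pol II libraries, 1 at each time, were unlike, with 21641320 tags at 1 h and 14622895 at 0 h. Their tag thresholds were 13 at 1 h and 11 at 0 h. The local filter removed 52.8% of candidates at 1 h and 38.9% at 0 h. The part of these differences in the shares below was not tested. Of all 13839 Pol II sites at 1 h, 22.2% had no Pol II site of 0 h within 1 kb. The share was 19.3% (17.7 to 21.1) near gained, 22.2% (20.5 to 23.8) near lost and 9.22% (8.52 to 9.95) near kept 1 h LSD1 sites. It was 50.1% (48.3 to 51.9) of 3064 Pol II sites with no gained, lost or kept 1 h LSD1 site near. Of all 12718 Pol II sites at 0 h, 14.8% had no Pol II site of 1 h within 1 kb. The share was 4.63% (3.71 to 5.69) near gained, 8.22% (7.08 to 9.47) near lost and 1.89% near kept 1 h LSD1 sites. It was 49.95% of 3025 Pol II sites with no LSD1 site of these classes near. Pol II sites called at 1 h alone were thus no more frequent near gained than near lost LSD1 sites, and those called at 0 h alone were more frequent near lost sites.

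Libraries that played no part in choosing the members held the 4 classes to different degrees. Within 1 kb of a site of the LSD1n KO list lay 9.40% (8.79 to 10.04) of gained and 58.8% (57.8 to 59.8) of kept 1 h sites, against 35.6% of all 1 h sites. The same list held 33.9% (33.04 to 34.8) of lost and 60.6% (59.7 to 61.6) of kept 0 h sites, against 46.8% of all 0 h sites. In the LSD1n WT list of 0 h these were 10.6% (9.995 to 11.3) of gained and 58.3% of kept 1 h sites (35.9% of all), and 32.6% (31.7 to 33.5) of lost and 59.9% of kept 0 h sites (45.8% of all). Lost sites were thus found in both other LSD1 antibody lists more often than gained sites. Gained sites have by definition no wild type 0 h site within 1 kb, so this order is in part set by the classes.

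The contrast was widest among first-listed sites. In the first 5th of each list the LSD1n WT list of 0 h held 18% (15.7 to 20.5) of 1000 gained sites and 83.9% (81.8 to 85.8) of 1321 lost sites. In the LSD1n KO list these were 14.5% of gained and 76.9% of lost sites. Kept sites of the same rank were found in the LSD1n WT list in 64.5% of cases at 1 h and 90.1% at 0 h. In the last 5th the LSD1n WT list held 6.53% of gained and 9.87% of lost sites. The first-listed lost sites were therefore mostly called again in another library at rest, and most first-listed gained sites were not. A low share of gained sites in a list at rest follows in part from their definition. No second 1 h library of this antibody was at hand in which gained sites could be looked up. Seen from the other lists, 51.4% of LSD1n KO sites were near a wild type 1 h site and 72.8% near a wild type 0 h site. Of the LSD1n WT sites of 0 h, 54.2% were near a 1 h site and 74.3% near a 0 h site.

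The Flag lists held gained and lost sites at similar shares, apart from the Flag-LSD1c list of 1 h, which held more of the gained. The Flag-LSD1n list of 1 h held 7.70% of gained and 28.6% of kept 1 h sites (18.8% of all), and 7.76% of lost and 30.0% of kept 0 h sites (18.5% of all). The shorter Flag-LSD1n list of 0 h held 1.41% of gained and 4.96% of kept 1 h sites (3.29% of all), and 1.08% of lost and 4.91% of kept 0 h sites (2.93% of all). The Flag-LSD1c list of 1 h held 10.99% (10.3 to 11.7) of gained and 34.99% of kept 1 h sites (23.7% of all), and 7.83% (7.35 to 8.33) of lost and 36.5% of kept 0 h sites (21.6% of all). The Flag-LSD1c list of 0 h held 6.57% of gained and 24.9% of kept 1 h sites (16.3% of all), and 6.89% of lost and 25.9% of kept 0 h sites (16.0% of all). Kept sites were in each of these 4 lists more often than gained or lost sites.

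**Figure D5:**
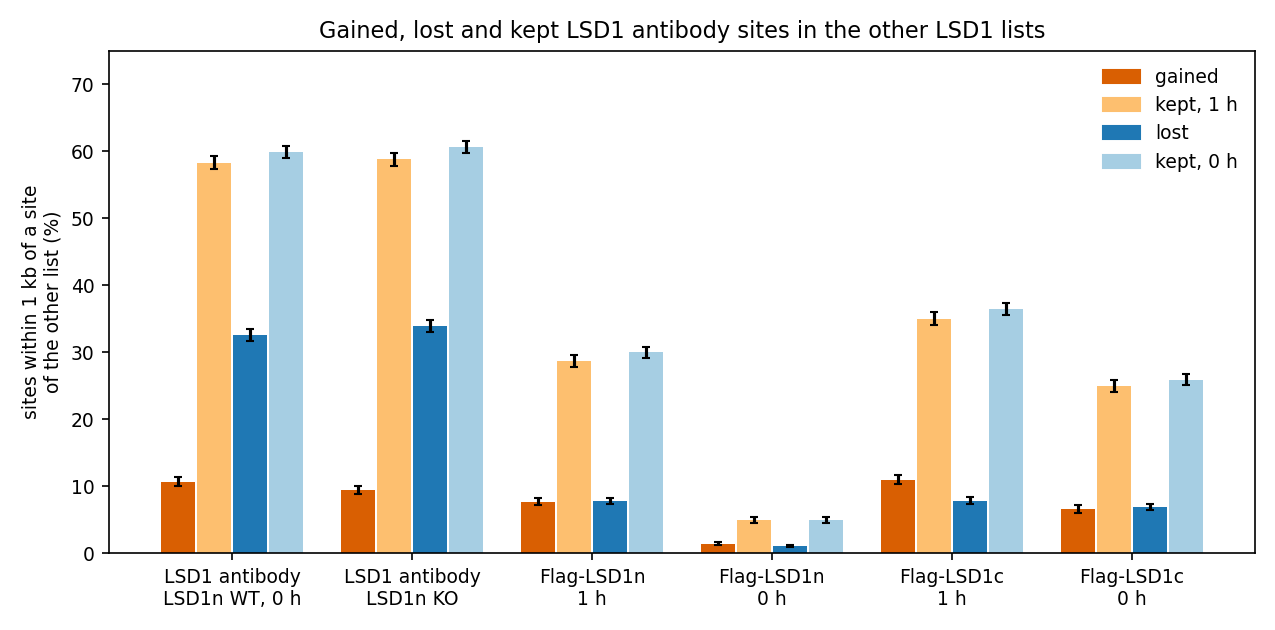
Share of gained and kept 1 h sites and of lost and kept 0 h sites (vertical axis, %) within 1 kb of a site in 6 other lists, with 95% exact intervals of counting error. The LSD1n KO and LSD1n WT lists hold 9.40% and 10.6% of gained sites but 33.9% and 32.6% of lost sites, and among the Flag lists that of Flag-LSD1c at 1 h holds 10.99% of gained and 7.83% of lost sites.

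Single sites give the positions behind these shares, in build mm9 and counted from 1. They are the first-listed of each class outside regions called with all 8 targets of the series (842 regions of chromosomes 1 to 19, which hold 2.75% of gained, 1.70% of lost and 6.65% of kept sites of either list). The first gained site was chr13:21264550-21264750, at place 37 of the 1 h list and 2679 bp from the nearest 0 h site, inside an H3K4me2 region at both times and 7240 bp from Pol II at 1 h. The gained site at place 73, chr5:109985791-109985991, lay in H3K4me2 at both times, 793 bp from the nearest Pol II site of 1 h and 88 bp from that of 0 h, and had a Flag-LSD1n site near it at 1 h. The gained site at place 80, chr11:68937733-68937933, lay in H3K4me2 at 0 h alone and was near an LSD1n WT site of 0 h.

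The first lost site was chr8:46023527-46023727, at place 56 of the 0 h list, 3 bp from a Pol II site of 1 h and 10 bp from that of 0 h. It lay in H3K4me2 and H4K20me1 (list 1) at both times, was called in the LSD1n KO and LSD1n WT lists, and the nearest 1 h site was 12551 bp away. It was also in the Flag-LSD1c list of 1 h, so Pol II, both marks and tagged LSD1c were called at 1 h where the LSD1 antibody site was not. The lost site at place 57, chr16:14163098-14163298, lay in H3K4me2 at both times and in the LSD1n KO and LSD1n WT lists, with no Pol II site within 1 kb. The lost site at place 88, chr11:106991703-106991903, lay in H4K20me1 in both 1 h lists and at 0 h, 921 bp from Pol II at 0 h and 1642 bp from it at 1 h.

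Among kept sites the first was chr6:125120958-125121158, at place 5 of both lists and shifted by 33 bp. With chr6:125123028-125123228, at place 23 at 1 h and 55 at 0 h, it was called in all 4 Flag lists but in neither the LSD1n KO nor the LSD1n WT list, and neither site had a mark or Pol II. The kept site chr1:24619855-24620055 stood at place 22 at 1 h and 60 at 0 h, 1 bp from a Pol II site of each time and in all 6 other LSD1 lists. It had the same position at both times and lay in H3K4me2 at both times. It also lay in H4K20me1 in both 1 h lists and at 0 h, and in H3K4me1 at 0 h, so it was called with nearly every antibody.

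The first gained sites on Pol II were chr4:133310223-133310423, at place 85 and 80 bp from Pol II at 1 h, and chr5:65782627-65782827, at place 96 and 136 bp from it. They lay 137 and 144 bp from a Pol II site of 0 h and overlapped H3K4me2 regions at both times. The site on chromosome 4 was in no other LSD1 list, while that on chromosome 5 was also in the LSD1n KO list, the LSD1n WT list of 0 h and the Flag-LSD1c list of 1 h. The second lost site on Pol II was chr4:131978219-131978419, at place 186, 66 bp from Pol II at 1 h and 53 bp at 0 h, in H3K4me2 at both times. Of the sites with no mark or Pol II at their own time, the first gained were chr13:21259804-21260004 (place 115) and chr2:169425709-169425909 (place 141), in no other LSD1 list. The first lost were chr6:34945286-34945486 (place 202) and chr14:68669387-68669587 (place 209), both in the LSD1n KO and LSD1n WT lists.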

How the data were processed

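ChIP-seq libraries were processed with Bowtie and HOMER on build mm9, per the submitters' processing notes, which give no version here. The deposited values used are genomic positions in bp: the authors called sites of 200 bp at least 500 bp apart, with 4-fold more tags than the surrounding 10 kb, for LSD1, Flag and Pol II, and stitched histone regions from 500 bp peaks, per the file headers. The headers name no control library and give 1 tag per position, fragments of 150 bp and a false discovery rate of 0.001. The deposited score is 1 throughout, so rank is the order in the list; its sort key is not given.

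Chromosomes 1 to 19 were used, which left out 199 sites at 1 h and 358 at 0 h. A mark was at a site when its region overlapped it by 1 bp; combinations used Pol II within 1 kb. Shares carry exact Clopper-Pearson intervals at 95%. Python 3.11.15, numpy 2.4.6, scipy 1.17.1 and matplotlib 3.10.9 were used, and the overlap code was tested on simulated sites. The genotype in all 4 Pol II tag directories contradicts the labels; the labels were followed, and the lists labelled KO are an alternative. The annotation at hand is of another build, so no gene is named, no sequence is shown and no gene list was counted. The named sites are the 3 first-listed of each class, the 2 first-listed gained and lost sites on Pol II and the 2 without any mark, outside regions of all 8 targets and off chromosome 18. The sites, classes and lists were chosen with earlier results of these data known.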

Additional observations from a re-analysis of the deposited data

Results flagged for a closer look

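The number of sites moved in opposite directions between antibodies. The LSD1 antibody lists had 18258 sites at 1 h and 22305 at 0 h, a log2 ratio of -0.29, while the Flag-LSD1n lists had 4336 at 1 h and 802 at 0 h (2.43) and the Flag-LSD1c lists 5437 at 1 h and 3826 at 0 h (0.51). Few tags of the Flag libraries lay in sites: 0.307% at 1 h and 0.0806% at 0 h for Flag-LSD1n, and 0.431% at 1 h and 0.257% at 0 h for Flag-LSD1c. With the LSD1 antibody these were 1.51% at 1 h and 1.82% at 0 h. The tag threshold of a site was 15 at 1 h and 17 at 0 h for Flag-LSD1n. The part of weak enrichment and of thresholds was not tested, nor was the difference itself, with 1 library at each time.

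The difference of the median distance from Pol II, 1 h minus 0 h, was -236 bp in the LSD1 antibody lists, with 159 bp at 1 h and 395 bp at 0 h. It was 11.5 bp in the Flag-LSD1n lists, with 162 bp (152 to 171) at 1 h and 150.5 bp (128 to 177) at 0 h. These Flag-LSD1n intervals overlap, so 11.5 bp gives no direction, and its 0 h list rests on 612 sites beside Pol II. In the Flag-LSD1c lists the difference was -16 bp, of the sign seen with the LSD1 antibody. The difference between antibodies was not tested.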

How the results depend on the processing

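With 1 library at each time, 45 alternative values stayed within the error of the main value, 53 moved beyond it and 3 reversed a difference larger than its error. That error was counting error only, except for H4K20me1 at 1 h, where it was the standard deviation between its 2 lists. The cause was not tested. H3K4me1 at 1 h, -0.736 and within its error, changed sign in 2 of the other values. The share kept, 53.0% at 1 h and 48.2% at 0 h, was 25.6% at 1 h and 20.9% at 0 h when kept meant overlapping by 1 bp, 48.5% at 1 h and 42.5% at 0 h within 500 bp, 55.4% at 1 h and 50.4% at 0 h within 2 kb, and 51.8% at 1 h and 46.8% at 0 h with centres within 1 kb. It was 48.2% at 1 h and 53.2% at 0 h with lists of equal length, which turns the order of the lists. With both lists cut to their first-listed 5 of 10 parts and kept called anew between them, it was 45.5% at 1 h and 41.8% at 0 h. A site whose only partner stood in the last 5 parts then counted as not kept, unlike in the shares by 10ths. Without regions of all 8 targets it was 52.0% at 1 h and 46.9% at 0 h.

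Each pair of differences between classes below is gained minus kept at 1 h and lost minus kept at 0 h, in percentage points. With kept defined by 1 bp, H3K4me1 was -4.01 and -5.16, H3K4me2 -4.65 and -3.41, H4K20me1 -2.12 and 0.452 (reversed), and Pol II 4.13 (reversed) and -9.15. The next values are for both lists cut to their first-listed 5 of 10 parts, with the classes called anew between them. H3K4me1 was 3.95 and 0.168 (both of the other sign than -0.736 and -2.58), H3K4me2 -21.7 and -13.5, H4K20me1 -2.90 and -2.71, and Pol II -22.7 and -6.00. With regions within 1 kb of the site, H3K4me1 was -18.3 and -14.9, H3K4me2 -35.5 and -36.9, H4K20me1 -6.39 and -15.9, and Pol II -43.0 and -44.3. With 50% of the site inside the region, H3K4me2 was -21.0 and -30.4, H4K20me1 at 0 h -3.10, and Pol II -14.8 and -4.56, while H3K4me1 at 1 h was 0.284. With lists of equal length, H3K4me2 was -25.2 and -28.3, H3K4me1 at 0 h -1.14 and H4K20me1 at 0 h -3.05. Without regions of all 8 targets H4K20me1 was -0.359 in place of -1.20 (the mean of 2 unlike lists at 1 h) and -3.06 in place of -3.88, and with kept within 2 kb it was -5.89 at 0 h. Leaving out either H4K20me1 library of 1 h gave -1.61 to -0.787.

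For the measures around Pol II every alternative was chosen after seeing the data. The medians of 159 bp at 1 h and 395 bp at 0 h were 140 bp at 1 h and 378 bp at 0 h with the Pol II list of 1 h, and 155 bp at 1 h and 376 bp at 0 h within 1 kb, and 408 bp at 0 h in the first-listed 5 of 10 parts. The share of pairs with the 1 h site nearer, 77.8%, was 66.7% among pairs overlapping by 1 bp. It was 79.3% among pairs called anew between the first-listed 5 of 10 parts of both lists. No paired analysis was possible because each LSD1 time has 1 library and no result comes from a test.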
